A study of Mus musculus with 9 samples.

Results

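The collagen genes were described here in HC11 cells, an established mouse mammary epithelial cell line. The members were all genes of the count table whose symbol has the form Col, a number, a and a number. There were 44 such genes among the 54532 genes of the table. The name alone decided membership, but the set was chosen with earlier results of these data known. RNA was sequenced from 9 libraries, 3 for each of 3 groups. The Ctrl group was untreated, and the groups EpPT1 and EpPT2 were exposed to light of 660 nm. The fluence is labelled 10 J/cm2 in EpPT1 samples and 20 J/cm2 in EpPT2 samples. Their treatment protocol instead speaks of 0.5 and 1 J/cm2 at 10 mW, so no dose is attached to the groups below. All libraries share the cell line, the serum-containing medium, and the labels' strain, C57BL/6. HC11 is a single line. Separate cultures are not stated for the libraries within a group, and the spread behind each p-value may therefore be technical.

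Collagens are secreted proteins made of 3 chains wound into a triple helix. Each chain is the product of its own gene, and the chains of a type assemble in the endoplasmic reticulum before secretion. Fibril-forming collagens (types I, II, III, V, XI, XXIV and XXVII) give stroma, bone and cartilage their tensile strength and are made mainly by mesenchymal cells. Type IV collagen forms the sheet-like network of basement membranes, on which mammary epithelium rests, and type VII anchors that sheet to the stroma below.

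Total counts were 14549787 to 17228929 per library. In 4 libraries, Ctrl 3, EpPT1 3, EpPT2 2 and EpPT2 3, the mitochondrial genes took 6.06% to 7.48% of the counts, against 2.74% to 3.62% in the other 5. This split crosses the groups and goes with large differences in collagen levels. The collagen medians, and only some single-gene values, are therefore also given without these 4 libraries. Levels are given as CPM, a gene's counts scaled to a common library total with TMM factors. Genes are ordered by CPM per kilobase of the deposited gene length. Counts and CPM quoted side by side for different genes are not scaled for length. Of the 44 collagen genes, 24 were abundant enough to test and 2 had 0 counts in all 9 libraries. Over all libraries the 44 genes held 69391 counts, so that collagens made up 0.0284% to 0.0714% of a library.

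The cells carried luminal epithelial transcripts, while markers of fibroblasts were present in part. The keratin genes Krt8 and Krt18 lay at 558 to 835 and 759 to 1125 CPM, but Cdh1, which encodes E-cadherin, lay at only 0.23 to 0.78 CPM. Of 9 fibroblast markers other than collagens, Thy1 had 0 counts in every library, and Lum and Postn were at 0 in 8 of 9 libraries each. Pdgfrb, Fap and Fbln2 had at most 0.426, 0.675 and 0.170 CPM. Fbln1 and Pdgfra were present in every library, at 7.72 to 34.7 and 2.65 to 8.18 CPM. The summed fibroblast level, 758 to 3309 CPM, was nearly all Dcn (732 to 3283 CPM), a small proteoglycan that binds collagen fibrils. By group it was 1315 to 3309 CPM in Ctrl, 758 to 2101 in EpPT1 and 778 to 2151 in EpPT2. In bulk RNA, fewer cells of a type and less RNA per cell cannot be told apart.

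Promoter sequence from RefSeq on GRCm38.p6 was matched by symbol for 35 of the 44 genes. The pair Col4a1 and Col4a2, the most abundant members, is transcribed in opposite directions from a common start region. Their annotated first exons overlap by 22 bases at chr8:11312805-11312826, and how strand was treated in counting is not stated, so reads from that stretch could go to either gene. The overlap is printed on the plus strand with a GC box (GGGCGG on either strand) in capitals. Next to it are the 250 bases before the start of Col7a1 (chr9:108953336-108953585, plus strand) and of Col8a1 (chr16:57754738-57754987, minus strand). These stand for a gene whose level varied widely between libraries and a gene whose level hardly varied, and the capitals mark GC boxes and CCAAT boxes.
Col4a1 and Col4a2 overlap: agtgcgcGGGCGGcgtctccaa
Col7a1 upstream: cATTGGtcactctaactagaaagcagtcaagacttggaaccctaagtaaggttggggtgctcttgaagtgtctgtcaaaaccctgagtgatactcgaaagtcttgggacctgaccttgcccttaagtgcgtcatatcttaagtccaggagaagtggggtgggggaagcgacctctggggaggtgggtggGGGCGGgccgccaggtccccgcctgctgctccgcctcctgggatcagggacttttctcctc
Col8a1 upstream: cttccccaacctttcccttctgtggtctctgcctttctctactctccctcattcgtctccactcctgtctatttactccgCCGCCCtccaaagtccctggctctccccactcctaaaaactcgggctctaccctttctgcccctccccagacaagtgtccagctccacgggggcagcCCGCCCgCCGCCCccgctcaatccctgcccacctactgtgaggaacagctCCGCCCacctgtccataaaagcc

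The Col7a1 stretch held 1 GC box and 1 CCAAT box, and that of Col8a1 held 4 GC boxes and 0 CCAAT boxes. Across the 38 upstream stretches of 250 bases of collagen genes, 22 held a GC box (57.9%), against 32.7% of 32851 such stretches of all genes. A CCAAT box (CCAAT, either strand) was found in 34.2% against 33.8%, and a TATA box (TATAAA, either strand) in 13.2% against 12.4%. The AP-1 sequence TGANTCA was found in 1 of the 38 stretches, that of Col6a1, against 6.75% of all stretches. These are letter matches only. GC boxes can overlap each other, and each start position was counted.

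Basement membrane collagen dominated the collagen RNA of these cells. Col4a1 and Col4a2, which encode the chains of the ubiquitous type IV network, together took 44.9% to 60.6% of all collagen counts. The summed collagen level was 345, 317 and 590.4 CPM for Ctrl 1 to 3, 282, 432 and 709 for EpPT1 1 to 3, and 421, 714 and 711 for EpPT2 1 to 3. The groups overlapped, and the 4 libraries with a high mitochondrial share were the 4 highest. Per length, the type IV class held 45.6% to 62.0% of the collagen level, fibril-associated collagens 20.4% to 34.0%, and the short-chain network class 6.12% to 14.6%. The fibril-forming class, with 11 genes the largest, held 1.01% to 2.88%. The 5 highest members per length, Col4a1, Col4a2, Col14a1, Col8a1 and Col7a1, held 86.7% of all collagen counts.

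**Figure D1:**
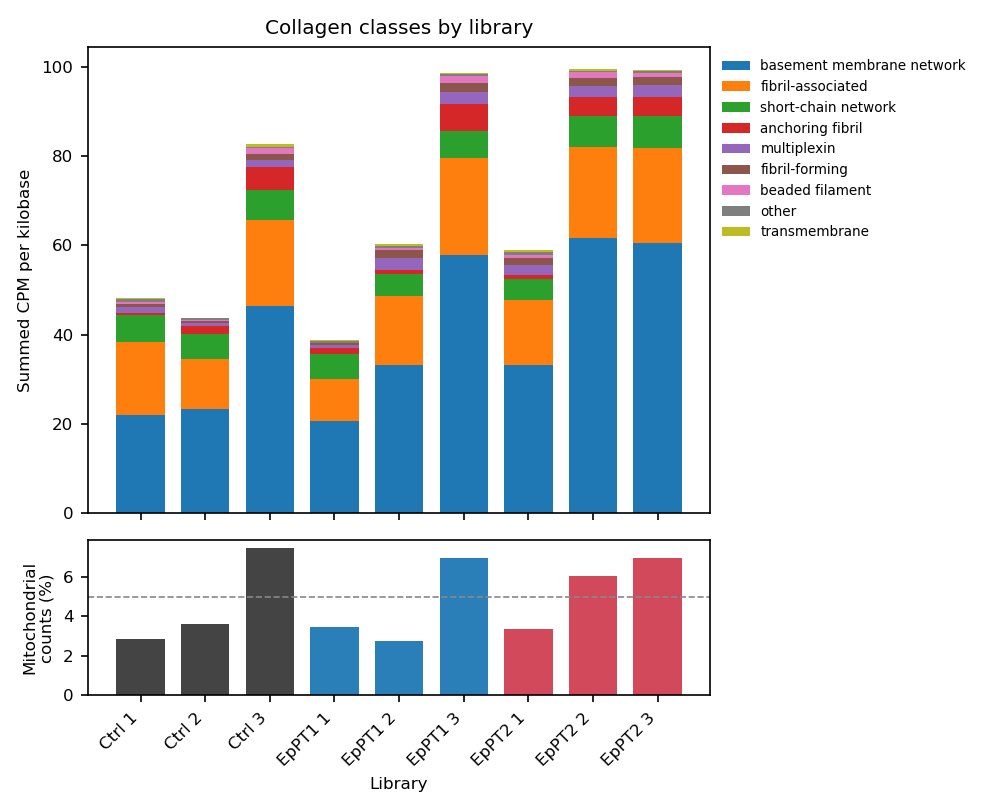
Summed level of each collagen class (top, CPM per kilobase, stacked bars) and share of counts on mitochondrial genes (bottom, percent, dashed line at 5%) in each of the 9 libraries. Type IV collagen is the tallest part of every bar, and the 4 libraries above the dashed line have the 4 tallest bars.

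In the order of levels per length, only 1 of the first 9 neighbouring pairs had ranges that did not overlap. Col4a1 averaged 21.6 ± 8.11 CPM per kilobase (mean ± SD over 9 libraries) and Col4a2 18.1 ± 9.03, with Col4a1 the higher in 8 of 9 libraries. Col14a1 followed at 11.4 ± 2.10 and Col8a1 at 5.92 ± 0.815, and these 2 genes were the pair without overlap. Col7a1 (2.79 ± 2.16), Col18a1 (1.86 ± 0.867) and Col16a1 (1.76 ± 1.25) overlapped one another, as did Col9a3, Col20a1 and Col9a1 at means of 1.09, 0.902 and 0.756. Set among the 14471 tested genes per length, Col4a1 stood at the 81.1 percentile, Col8a1 at the 52.4 and Col9a1 at the 16.8 percentile.

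**Figure D2:**
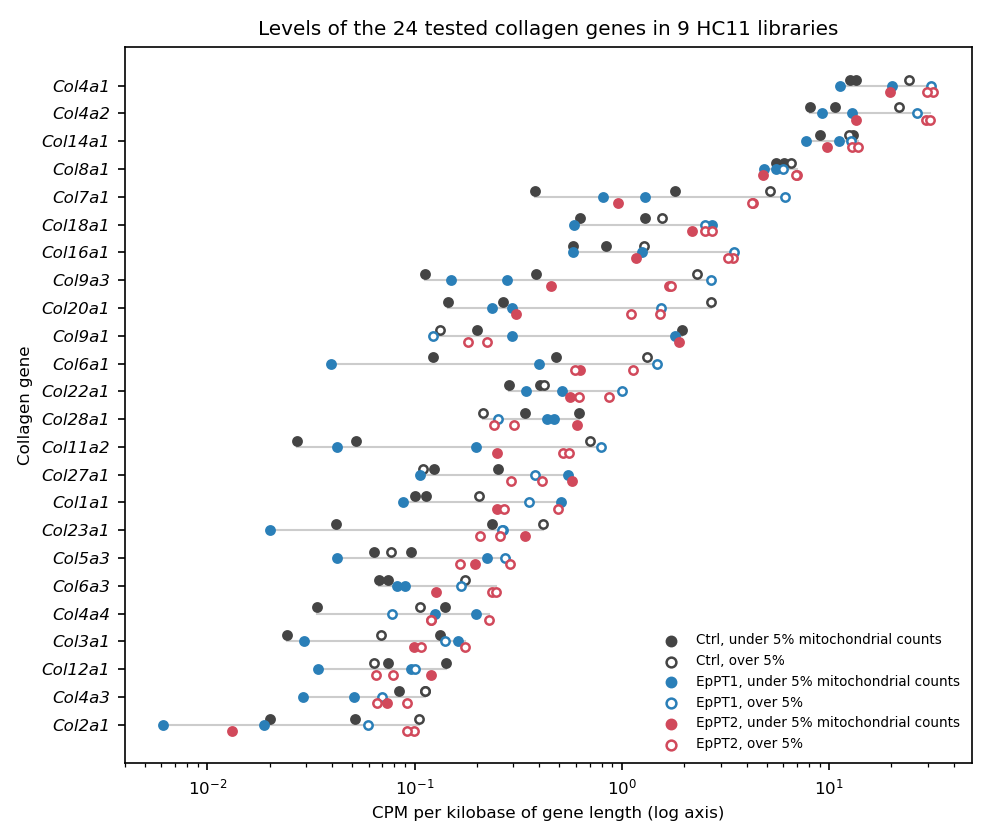
Level of each of the 24 tested collagen genes (rows, highest mean at the top) in the 9 libraries, in CPM per kilobase on a log axis. Colours mark the groups, and open points the 4 libraries with over 5% mitochondrial counts, which lie at the right end for Col4a1, Col4a2, Col7a1 and Col16a1.

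Several chains were measured far above a partner with which they assemble in known trimers. Type I collagen, the main protein of bone and skin, is usually built from Col1a1 and Col1a2 chains. Col1a1 had 244 counts over the 9 libraries and Col1a2 had 5, with 0 in 5 libraries. Per length this is a ratio of 92.4, with an exact 95% interval of 39.1 to 287 that covers counting error only. The ratio was not tested between groups because Col1a2 had only 0 to 2 counts per library.

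Unequal chains were seen in other types too. For type VI, which forms beaded filaments from Col6a1, Col6a2 and a further chain, Col6a1 had 405 counts, Col6a3 had 231 and Col6a2 had 2. For type IX, which decorates cartilage fibrils, Col9a1 and Col9a3 had 570 and 552 counts and Col9a2 had 8. For type VIII, a short-chain network collagen, Col8a1 had 6499 counts and Col8a2 had 7. Of the type XI genes, Col11a2 had 316 counts, while Col11a1 had 0, which allows up to 0.170 to 0.225 CPM per library by counting error alone. For type V, Col5a3 had 152 counts, Col5a2 had 55 and Col5a1, the chain found in most type V trimers, had 6. These counts are not scaled for gene length. Per kilobase Col6a1, Col6a3 and Col6a2 averaged 0.688, 0.141 and 0.00188 CPM. Col5a3, Col5a2 and Col5a1 averaged 0.159, 0.0396 and 0.00499 CPM per kilobase.

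Of the 20 members that were not tested, Col5a2 had the highest mean, at 0.380 CPM. In 13 of them all 9 libraries together held fewer than 10 counts. Col6a4 and Col11a1 had 0 counts throughout. The others of this kind were Col1a2, Col4a5, Col5a1, Col6a2, Col6a6, Col8a2, Col9a2, Col13a1, Col19a1, Col25a1 and Col26a1. Col10a1, a marker of mature cartilage, had 18 counts and Col17a1, a transmembrane collagen of basal epithelial cells, had 21.

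Col4a1 (ENSMUSG00000031502, chromosome 8, 11198423 to 11312826, GRCm38) had 101, 94.1 and 181 CPM in the Ctrl libraries, 84.1, 149.7 and 231 in those of EpPT1, and 146, 238 and 222 in those of EpPT2. Col4a2 (ENSMUSG00000031503, chromosome 8, 11312805 to 11449287) had 53.8, 70.6 and 145 CPM in the Ctrl libraries, 61.0, 85.4 and 176 in those of EpPT1, and 89.0, 195 and 202 in those of EpPT2. For both genes the libraries Ctrl 3, EpPT1 3, EpPT2 2 and EpPT2 3 were the highest, and the groups overlapped. The ratio of Col4a1 to Col4a2 per length averaged 1.32 ± 0.303 for Ctrl, 1.31 ± 0.212 for EpPT1 and 1.17 ± 0.252 for EpPT2 (SD, 3 libraries each). On the log2 scale EpPT2 differed from Ctrl by −0.17 (exact permutation test, two-sided, p = 0.50, adjusted 0.90 over 6 tests, where 0.10 is the smallest p possible). The ratio was 0.975 to 1.16 in the 4 libraries with a high mitochondrial share and 1.18 to 1.67 in the other 5.

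The minor type IV chains were far lower. Col4a3 and Col4a4, which pair in the basement membrane of kidney and lung, had means of 0.763 and 1.36 CPM. Col4a3 shares 5.65% of its exonic bases with the opposite-strand gene C430014B12Rik, so its value is uncertain. Col4a5 and Col4a6, neighbours on the X chromosome, had 7 and 41 counts in all.

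**Figure D3:**
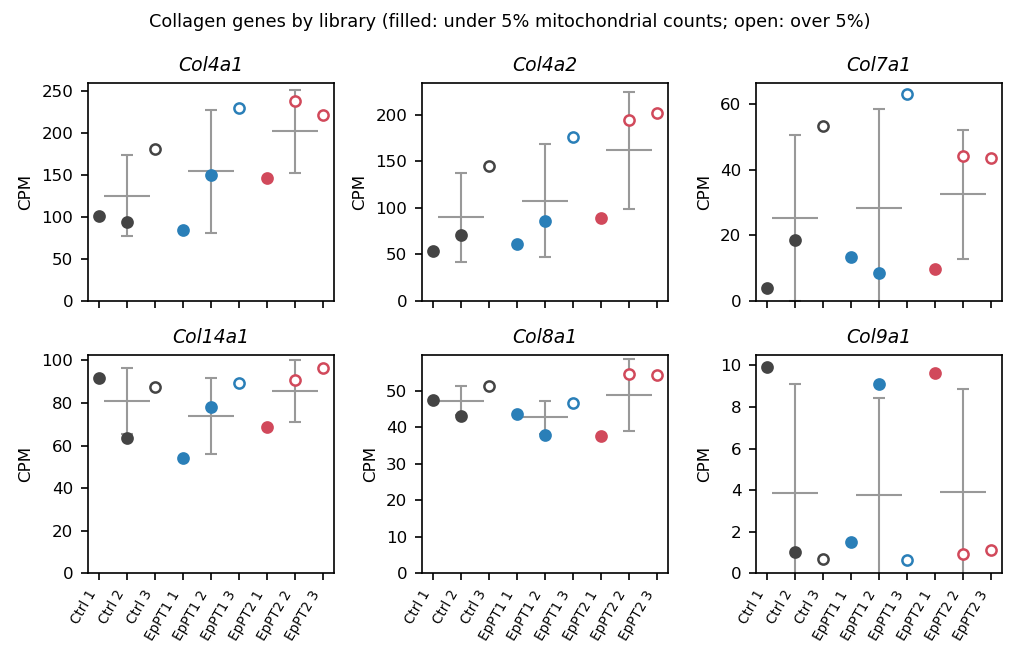
CPM of 6 collagen genes in each library, with the group mean and SD as grey bars (n = 3, cut at 0 on the axis). Colours mark the groups and open points the 4 libraries with over 5% mitochondrial counts. Col4a1, Col4a2 and Col7a1 are highest in those 4, Col14a1 and Col8a1 vary little, and Col9a1 is high in Ctrl 1, EpPT1 2 and EpPT2 1.

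Col14a1, a fibril-associated collagen that binds the surface of collagen fibrils (ENSMUSG00000022371, chromosome 15, 55307750 to 55520803), had 91.7, 63.4 and 87.7 CPM in Ctrl. It had 54.3, 78.3 and 89.4 CPM in EpPT1 and 68.9, 90.8 and 96.6 in EpPT2. Col8a1, a short-chain collagen of vessel walls and the eye (ENSMUSG00000068196, chromosome 16, 57624258 to 57754737), had 47.5, 43.2 and 51.4 CPM in the Ctrl libraries, 43.7, 37.9 and 46.8 in those of EpPT1, and 37.6, 54.7 and 54.4 in those of EpPT2. These were the steadiest members, and together with Col4a1 and Col4a2 they were the only 4 of the 44 above 10 CPM in every library. The group means of Col14a1 were 80.9, 74.0 and 85.5 CPM in Ctrl, EpPT1 and EpPT2, and those of Col8a1 were 47.4, 42.8 and 48.9. For both genes the groups overlapped.

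Col7a1, which forms the anchoring fibrils between epithelium and stroma (ENSMUSG00000025650, chromosome 9, 108953586 to 108984875), ranged from 3.90 to 63.1 CPM. It had 3.90, 18.6 and 53.2 CPM in the Ctrl libraries, 13.4, 8.37 and 63.1 in those of EpPT1, and 9.86, 44.0 and 43.6 in those of EpPT2. The spread within each group exceeded the difference between the group means of 25.2, 28.3 and 32.5 CPM.

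Several fibril-associated and fibril-forming collagens were high in the same 4 libraries as Col7a1. Col16a1, a fibril-associated collagen, had 3.90, 5.67 and 8.62 CPM in the Ctrl libraries, 3.92, 8.43 and 23.6 in those of EpPT1, and 7.91, 23.1 and 21.9 in those of EpPT2. Col20a1, of the same class, had 0.744, 1.37 and 13.8 CPM in the Ctrl libraries, 1.21, 1.53 and 7.96 in those of EpPT1, and 1.58, 5.67 and 7.90 in those of EpPT2. Ctrl 3 was thus the highest of all libraries for Col20a1, while Ctrl 1 and Ctrl 2 were among the 3 lowest. It shares 1.54% of its exonic bases with another annotated gene on the same strand, so its value is uncertain.

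Col9a3 ranged from 0.434 CPM in Ctrl 1 to 10.4 in EpPT1 3, although 6.07% of its exonic bases overlap Tcfl5 on the opposite strand. Col11a2, a fibril-forming chain, ranged from 0.186 CPM in Ctrl 1 to 5.398 in EpPT1 3. Without regard to group, 9 of the 24 tested collagens (37.5%) were higher in all 4 libraries with a high mitochondrial share than in any of the other 5, against 16.5% of all tested genes. They were Col2a1, Col4a1, Col4a2, Col6a3, Col7a1, Col9a3, Col11a2, Col16a1 and Col20a1. Only Col28a1 was lower in all 4 (4.17%, against 18% of all tested genes), at 1.05 to 1.48 CPM against 1.67 to 3.04. The labels do not name this split, the libraries were divided by a measured share, and no test was made of it.

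Some marker sums were also higher without overlap in the 4 libraries of high mitochondrial share, as were 16.5% of all tested genes. The summed basal markers lay at 20.3 to 23.9 CPM in the 4 libraries and 4.71 to 9.85 in the other 5, led by Krt14. The basal markers Trp63, Acta2 and Myh11 overlapped, at no more than 0.900 CPM. The summed blood and immune markers lay at 87.9 to 103 CPM against 9.73 to 46.0. Nearly all of this was the lysosomal gene Cd68, and the pan-leukocyte gene Ptprc had at most 0.761 CPM. The summed luminal markers lay at 2581 to 2816 against 1716 to 2527 CPM. Of the single luminal markers only Epcam separated, at 37.9 to 44.8 against 17.6 to 34.6 CPM. The others overlapped, such as Krt8 at 611 to 768 against 558 to 835 and Krt19 at 496 to 637 against 245 to 538. The summed fibroblast markers overlapped, at 1845 to 3309 against 758 to 2158 CPM. The part that any of these has in the collagen levels was not tested.

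Col9a1, a chain of fibril-associated type IX collagen (ENSMUSG00000026147, chromosome 1, 24177610 to 24252684), showed a different pattern. It had 9.92, 1.02 and 0.675 CPM in the Ctrl libraries, 1.499, 9.10 and 0.623 in those of EpPT1, and 9.61, 0.922 and 1.13 in those of EpPT2. In each group 1 library lay between 9.10 and 9.92 CPM and the other 2 between 0.623 and 1.499. The counts behind this were 160, 161 and 158 in Ctrl 1, EpPT1 2 and EpPT2 1, and 9 to 26 in the other 6 libraries. Its group means of 3.87, 3.74 and 3.89 CPM therefore describe no library. Its partner Col9a3 did not follow it, with 0.434, 1.07 and 1.76 CPM in those 3 libraries.

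In EpPT2, labelled with the higher fluence, most collagens had fitted levels above Ctrl, but no member passed the test. edgeR's quasi-likelihood test called 0 of the 24 tested collagens (lowest adjusted p = 0.388), as it called 0% of all 14471 genes. DESeq2 gave an adjusted p for only 13 of the 24 and called 0 of these (lowest adjusted p = 0.193), and it called 0.422% of all genes, of which 11356 had an adjusted p. In the same comparison limma-voom called 0 of 24 collagens (lowest adjusted p = 0.41) and 0% of all genes. Fitted values were higher than Ctrl for 20 of 24 members (83.3%), against 47.9% of all tested genes, with a median log2 difference of 0.58 against −0.03. An unadjusted p under 0.05 was reached by 2 of 24 (8.33%), below the 12.2% of all genes, by 3 in DESeq2 (14.9% of all genes) and by 0 in limma-voom (12.1%).

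In 5 of 24 members (20.8%) every EpPT2 library lay above every Ctrl library, against 12.3% of all tested genes. Col18a1, a basement membrane collagen whose tail is the source of endostatin (ENSMUSG00000001435, chromosome 10, 77052178 to 77166548), had 9.05, 4.42 and 10.9 CPM in Ctrl and 15.4, 17.8 and 19.0 in EpPT2. Its log2 difference was 1.10 (SE 0.52), with an adjusted p of 0.415 in edgeR. Col27a1, a fibril-forming collagen of cartilage (chromosome 4, 63214004 to 63334991), had 3.28, 1.61 and 1.42 CPM in Ctrl and 7.48, 3.82 and 5.36 in EpPT2. Its log2 difference was 1.39 (SE 0.60), with an adjusted p of 0.396 in edgeR. EpPT2 1 was the highest library for Col27a1, although it was not among the 4 with a high mitochondrial share.

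Col1a1 (ENSMUSG00000001506, chromosome 11, 94936224 to 94953042) had 0.744, 0.657 and 1.35 CPM in Ctrl and 1.64, 1.78 and 3.24 in EpPT2. These levels rest on 11 to 18 counts per Ctrl library and 27 to 46 per EpPT2 library. Its log2 difference was 1.28 (SE 0.66), Col5a3 gave 1.45 (SE 0.67) and the fibril-associated Col22a1, found at tissue junctions, 0.88 (SE 0.43), with adjusted p values of 0.414 to 0.438 in edgeR. Col3a1, the fibril-forming chain of soft tissue, overlapped between groups at 0.239 to 1.30 CPM in Ctrl and 0.974 to 1.71 in EpPT2. All 6 tested fibril-forming genes had fitted values above Ctrl, against 47.9% of all tested genes, with a median log2 difference of 1.03. In 3 of them every EpPT2 library lay above every Ctrl library, against 12.3% of all tested genes, and 3 overlapped with Ctrl. The GC content of these genes ran from 52.5% to 62.9%, and no class median was computed with the GC trend removed.

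The member with the smallest p was Col16a1, whose log2 difference was 1.54 (SE 0.64, edgeR adjusted p = 0.388). The groups overlapped, since EpPT2 1 at 7.91 CPM lay below Ctrl 3 at 8.62. With no filter on low counts, Col16a1 was called by edgeR (adjusted p = 0.041), as 1 of 42 collagens (2.38%) and among 0.933% of 28724 genes. Col4a1 gave 0.69 (SE 0.39) and Col4a2 0.85 (SE 0.49), with adjusted p values of 0.466 and 0.473 in edgeR. On the lower side Col4a3 gave −0.41 (SE 0.52), Col12a1 −0.09 (SE 0.57) and Col20a1 −0.07 (SE 1.08).

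Collagens were among the genes rich in GC, and libraries differed in how levels moved with GC content. Of the 24 tested members, 22 lay above the median GC content of all tested genes (49.4%), with a member median of 56.4%. Each library's log2 deviation from the mean over the 9 libraries had a slope on GC content, per 10 percentage points, of −0.495 to −0.223 in Ctrl, 0.186 to 0.291 in EpPT2, and −0.355, 0.179 and 0.368 in EpPT1. With each library's GC trend removed, the median log2 difference of EpPT2 from Ctrl was 0.05 and 13 of 24 members were higher, where all genes had a median of −0.07. There Col16a1 gave 0.63, Col27a1 0.60 and Col18a1 0.22. With a replicate block as well, the median was 0.21 and 18 of 24 members were higher, where all genes had −0.04. The slopes were all negative in Ctrl and all positive in EpPT2. A GC trend of the libraries and a difference between these groups therefore cannot be told apart, and removing the trend may remove both.

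The collagen median for EpPT2 also moved with single libraries. It was 1.18 without Ctrl 3, 0.29 without Ctrl 2 and 0.87 without EpPT2 1, and limma-voom with all libraries also gave 0.87. Members reaching that unadjusted threshold numbered 7 of 25 without Ctrl 3 (15.1% of all genes), 6 of 25 without EpPT1 1 (16.3%) and 3 of 25 without EpPT1 3 (14.7%). They numbered 1 of 25 without Ctrl 1 (6.73%) or EpPT2 2 (5.6%), and 0 of 25 without Ctrl 2 (9.75%) or EpPT2 3 (5.75%). Without the 4 libraries of high mitochondrial share the median was 0.73, with EpPT2 1 alone in its group. There Col27a1 gave 1.63, Col18a1 1.21 and Col16a1 0.74.

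**Figure D4:**
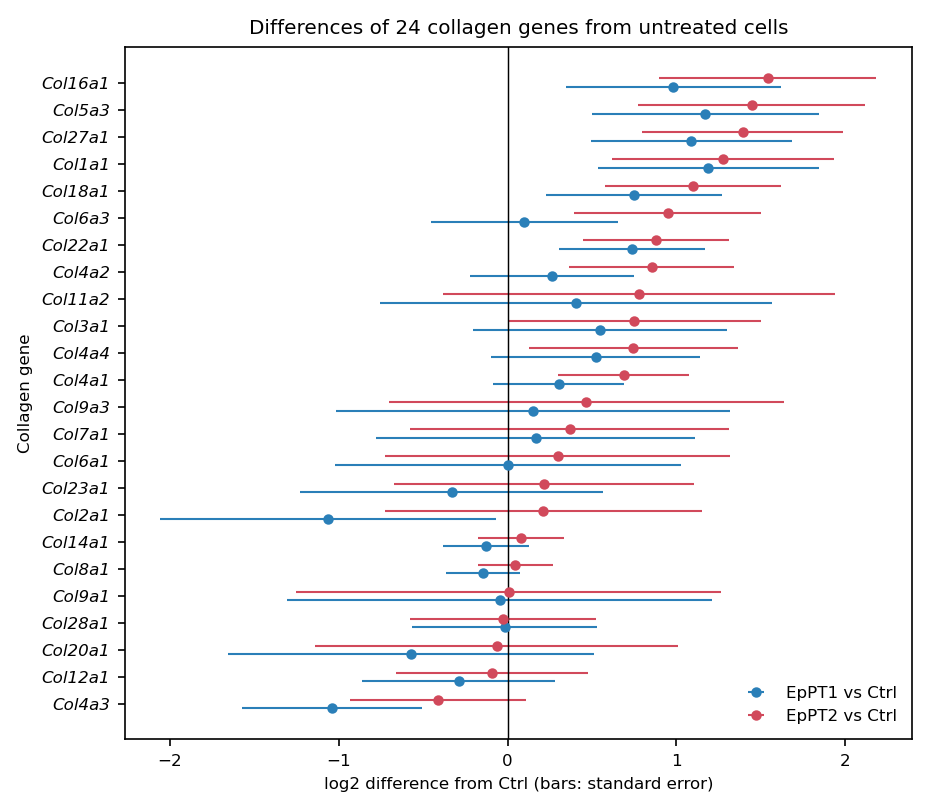
Fitted log2 difference from Ctrl of the 24 tested collagen genes in EpPT1 and EpPT2, with standard errors as bars, ordered by the EpPT2 value. Both exposures share the Ctrl libraries; 20 of 24 EpPT2 points lie right of 0, most within 2 standard errors of it.

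In EpPT1, labelled with the lower fluence, collagens lay on both sides of Ctrl. edgeR called 0 of 24 members (lowest adjusted p = 0.991), and 0% of all tested genes. An unadjusted p under 0.05 was reached by 0 members, against 3.93% of all genes, by 0 in DESeq2 (5.09% of all genes) and by 0 in limma-voom (2.81%). DESeq2 called 0 of 24 collagens and 0.00691% of all genes, and edgeR with no filter on low counts called 0 and 0.111%. Fitted values were higher for 15 of 24 members (62.5%), against 48% of all genes, with a median log2 difference of 0.16 against −0.02. No member lay above Ctrl in all 3 libraries (2.73% of all genes did) and 1 lay below, against 2.53%.

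The member below was Col4a3, with 1.12, 0.836 and 1.12 CPM in Ctrl and 0.288, 0.509 and 0.692 in EpPT1. Its log2 difference was −1.04 (SE 0.53, edgeR adjusted p = 0.991), and it rests on 5 to 18 counts per library. Col2a1, the main collagen of cartilage, gave −1.06 (SE 0.99), with at most 13 counts in any of these libraries. It was −2.16 without EpPT1 3 and −0.38 without Ctrl 3. On the higher side were Col27a1 at 1.09 (SE 0.59), Col1a1 at 1.19 (SE 0.65) and Col5a3 at 1.17 (SE 0.67). For these 3 genes EpPT1 1 lay below every Ctrl library, while EpPT1 2 and EpPT1 3 lay above every Ctrl library. Their GC content is 58.9% to 61.6%. The slope on GC content was −0.355 in EpPT1 1, 0.179 in EpPT1 2 and 0.368 in EpPT1 3. What part GC content has in this split was not tested. Col27a1 had 1.38, 7.12 and 4.98 CPM in EpPT1, Col1a1 had 0.576, 3.34 and 2.35, and Col5a3 had 0.288, 1.53 and 1.87.

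The collagen median in EpPT1 rested on single libraries. It was 0.79 without Ctrl 3, 0.55 without EpPT1 1, 0.24 without EpPT1 2, −0.08 without Ctrl 2 and −0.21 without EpPT1 3. With the GC trend removed it was −0.15, with 8 of 24 members higher. It was 0.28 without the 4 libraries of high mitochondrial share and 0.32 when that share entered as a covariate. With no filter it was 0.27, but over 42 collagens, including members too low to be tested otherwise. An unadjusted p under 0.05 was reached by 6 of 25 members without EpPT1 1 (13.3% of all genes), and by 1 of 25 without Ctrl 1 (2.38%) or without Ctrl 3 (4.26%). Col4a1 differed from Ctrl by 0.30 (SE 0.39) and Col4a2 by 0.26 (SE 0.49), but by −0.10 and −0.29 without EpPT1 3.

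EpPT2 against EpPT1 asks how the exposures differ from each other. edgeR called 0 of 24 collagens (lowest adjusted p = 1.00) and 0% of all tested genes, and 0 members had an unadjusted p under 0.05, against 0.214% of all genes. DESeq2 and limma-voom also gave 0 members at that level, against 0.263% and 0.152%, and edgeR with no filter called 0 collagens and 0.00696% of genes. Fitted values were higher in EpPT2 for 23 of 24 members (95.8%), against 48.3% of all genes, and the median log2 difference was 0.30 against −0.01. No member's libraries separated the groups in either direction, against 1.26% and 1.2% of all genes. The members with the smallest p among those higher were Col6a3 (0.85, SE 0.55), Col2a1 (1.28, SE 0.99) and Col4a2 (0.59, SE 0.49). Col2a1 there was 2.37 without EpPT1 3 and 0.79 without EpPT1 2. The 1 lower member, Col28a1, gave −0.01 (SE 0.55), and Col4a1 gave 0.39 (SE 0.39).

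Col6a3, a chain of the type VI beaded filament, had 0.980, 1.07 and 2.01 CPM in EpPT1 and 1.52, 2.83 and 2.96 in EpPT2. EpPT1 has 1 library and EpPT2 has 2 libraries of high mitochondrial share, and Col6a3 is higher in all of these than in the rest. Without EpPT1 1 the median over the collagens was 0.02, with 13 of 25 tested members higher, and without EpPT1 3 it was 0.70, with 2 of 25 members at an unadjusted p under 0.05, against 4.77% of all genes. In limma-voom it was 0.59, and with the GC trend removed 0.22, with 22 of 24 members higher. Without the 4 libraries of high mitochondrial share the median was 0.42, with EpPT2 1 alone in its group. Across all 3 groups, edgeR's test for any difference called 0 of 24 collagens (lowest adjusted p = 0.916) and 0% of all genes. There 0 members had an unadjusted p under 0.05, against 5.22% of all genes.

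The share of collagen counts held by the fibril-forming genes Col1a1, Col1a2, Col3a1 and Col5a1 together was low in every group. This is not the whole class, since it leaves out Col27a1 (578 counts in all), Col11a2 (316) and others, against 244 for Col1a1. Counts are not scaled for gene length. Per kilobase Col27a1, Col11a2 and Col1a1 averaged 0.311, 0.349 and 0.265 CPM. Ctrl averaged 0.418% ± 0.185, EpPT1 0.671% ± 0.453 and EpPT2 0.592% ± 0.0583 (SD, 3 libraries each). Single libraries ranged from 0.282% (exact 95% binomial interval 0.158% to 0.465%, Ctrl 2) to 1.18% (0.948% to 1.45%, EpPT1 2). EpPT2 differed from Ctrl by 0.174 percentage points (exact permutation test, two-sided, p = 0.30, adjusted 0.90 over 6 tests).

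Genes that make, process or bind collagen were followed as a list of 54, of which 32 were tested. edgeR called 0 of them in each comparison, as it called 0% of all tested genes. In EpPT1 against Ctrl 19 were higher and 13 lower (median log2 difference 0.02), in EpPT2 against Ctrl 21 and 11 (0.19), and in EpPT2 against EpPT1 24 and 8 (0.08). Of all tested genes, 48%, 47.9% and 48.3% were higher in these comparisons, in the same order. The medians over all tested genes were −0.02, −0.03 and −0.01.

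Some enzymes and chaperones of collagen were close to undetected, while others of the list were abundant. Serpinh1, the collagen chaperone of the endoplasmic reticulum, had at most 0.608 CPM, and Plod2, a lysyl hydroxylase of the collagen telopeptides, at most 0.358. The relatives of Plod2, Plod1 and Plod3, lay at 2.17 to 12.8 and 84.0 to 218 CPM. P4hb lay at 766 to 2112 CPM and Colgalt1 at 85.5 to 160. Lox, a lysyl oxidase that crosslinks fibrils, had at most 0.186 CPM, whereas its relatives Loxl2 and Loxl4 lay at 49.3 to 296 and 182 to 356 CPM. The prolyl hydroxylase genes P4ha1 and P4ha2, whose products stabilise the triple helix, lay at 123 to 604 and 95.3 to 412 CPM. In TMM-scaled CPM both were highest in Ctrl 3. Both were higher in all 4 libraries of high mitochondrial share than in the other 5, as were 16.5% of all tested genes. Plod1, Plod3, P4hb and Loxl2 separated in the same way, with P4hb at 1955 to 2112 against 766 to 1121 CPM. Colgalt1 and Loxl4 overlapped.

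Among genes acting outside the cell, Pcolce, an enhancer of procollagen cleavage, had 385, 575 and 741 CPM in the Ctrl libraries, 525, 565 and 1154 in those of EpPT1, and 619, 1030 and 1021 in those of EpPT2. Bmp1, a procollagen protease gene, had 36.9, 50.3 and 60.05 CPM in the Ctrl libraries, 47.7, 52.3 and 98.6 in those of EpPT1, and 58.0, 81.4 and 80.5 in those of EpPT2. Sparc, a collagen-binding glycoprotein, averaged 252 ± 54.0 CPM for Ctrl, 254 ± 66.6 for EpPT1 and 318 ± 63.9 for EpPT2 (SD, 3 libraries each). The groups overlapped for all 3 genes. All 3 were higher in every library of high mitochondrial share than in the rest, as were 16.5% of all tested genes. Sparc lay at 314 to 369 CPM in those libraries and 209 to 246 in the rest. Pcolce lay at 741 to 1154 against 385 to 619 CPM, and Bmp1 at 60.05 to 98.6 against 36.9 to 58.0. EpPT2 holds more of those libraries than Ctrl or EpPT1. What part this split has in the group means was not tested.

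Of the collagen receptors, Ddr1, a receptor tyrosine kinase that type IV collagen activates, had 46.7, 38.0 and 47.2 CPM in Ctrl. It had 36.1, 93.5 and 107 CPM in EpPT1 and 89.1, 100.1 and 100.8 in EpPT2. All EpPT2 libraries lay above Ctrl, with means of 96.6 ± 6.56 against 44.0 ± 5.14 CPM (SD, n = 3 each), but edgeR's adjusted p of 0.376 did not pass. Of all tested genes, 12.3% had every EpPT2 library above every Ctrl library. EpPT1 1 lay below Ctrl, unlike EpPT1 2 and EpPT1 3. The GC content of Ddr1 is 59.7%. The slope on GC content was positive in EpPT1 2, EpPT1 3 and all EpPT2 libraries, where Ddr1 was high, and negative in EpPT1 1 and Ctrl. What part GC content has in the Ddr1 levels was not tested. Ddr2, the receptor for fibrillar collagen, lay at 138 to 239 CPM and was lower in all 4 libraries of high mitochondrial share (138 to 153) than in the other 5 (173 to 239). Mrc2, an uptake receptor for collagen fragments, had 0 counts in each Ctrl library, which allows up to 0.179 to 0.225 CPM, and 0.263 to 0.692 CPM in the exposed libraries, too low for a test.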

How the data were processed

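The authors deposited 1 table of raw read counts by gene for the 9 RNA-seq libraries, its columns named like the labels. Bowtie 0.12.2 and build mm8 stand in the submitters' processing notes. The table's coordinates equal those of GENCODE M21 on GRCm38 for 53585 of the 54495 gene IDs found there (98.3%) and for all 44 collagen genes, so coordinates are GRCm38. The counter was not given in the sources used here, nor was its handling of strand. Another column, the deposited gene length from the authors' table, has no stated origin and served only for levels per kilobase.

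The members and lists were chosen with earlier results of these data known. In R 4.3.3, edgeR 4.0.16 (TMM scaling, filterByExpr, 1 quasi-likelihood fit of all 9 libraries, two-sided, Benjamini-Hochberg over 14471 genes, threshold 0.05) gave all fold changes, and standard errors follow from its F statistic. The steps were tested on simulated data. Floors take a count of 0 to allow 3 counts, and no molecular identifiers are recorded, so floors and intervals cover counting error only.

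Named were the 10 members highest per length, the 3 with the smallest p in each direction of a comparison, their trimer partners and 11 pathway genes; other members, among them all with groups that do not overlap, were added after their values were seen, as were the remaining marker and pathway genes. The alternatives were DESeq2 1.42.0 and its size factors, limma-voom (limma 3.58.1), no filter, a minimum of 5 CPM in at least 3 libraries, a replicate block, the 6 libraries compared, each library left out, the mitochondrial share as a covariate, the libraries under 5% mitochondrial counts, and removal of a spline with 5 degrees of freedom on GC content of the longest transcript.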

Additional observations from a re-analysis of the deposited data

How the results depend on the processing

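The collagen count stayed at 0 in the 3 comparisons and in the test for any group under every alternative run, with 1 exception: in EpPT2 against Ctrl, 1 collagen was called by edgeR when no filter on low counts was used. Over all genes, that setting gave 32 calls for EpPT1 and 268 for EpPT2 against Ctrl, and 2 between the exposures. In that order DESeq2 gave 1, 61 and 0, and leaving out 1 library gave 0, 0 to 2 (2 without EpPT1 1), and 0. The collagen median ranged over these omissions from −0.21 to 0.79, 0.29 to 1.18 and 0.02 to 0.70. The ratio of Col4a1 to Col4a2 in EpPT2 was 1.46 without the 4 libraries of high mitochondrial share, where only EpPT2 1 remains.

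Of 465 single-gene values under alternatives, 442 kept their direction and side of the threshold and 1, Col16a1 without the filter, passed it. Among those kept, Col1a1, Col4a3, Col5a3 and Col12a1 had no adjusted p in DESeq2 for EpPT2 against Ctrl, so only their direction counts there. In EpPT1 against Ctrl, Col4a1 and Col4a2 turned to −0.15 and −0.32 with the GC trend removed and to −0.15 and −0.26 with a block as well. In EpPT2 against Ctrl, Col20a1 turned to 0.82 in limma-voom, 0.73 with the replicate block, 0.075 with the mitochondrial covariate, 0.59 without the 4 libraries and 0.22 with GC removal and block, and Col12a1 to 0.16 without the 4 libraries. In EpPT2 against EpPT1, Col28a1 turned to 0.26 with the covariate and 0.43 without the 4 libraries. Over single omissions Col4a1 and Col4a2 in EpPT1 ranged from −0.10 to 0.66 and −0.29 to 0.79, Col20a1 and Col12a1 in EpPT2 from −0.58 to 2.24 and −0.39 to 0.34, and Col28a1 from −0.52 to 0.23. The cause of these changes was not tested.

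Replicate numbers share only a number. Deviations from group means of same-numbered libraries correlated at −0.64 to 0.73, over 0.1 in 6 of 9 pairs, and those of differently numbered libraries at −0.77 to 0.75. Of the 9 libraries, 4 correlated best with their own number. Ctrl 1, EpPT1 2 and EpPT2 1, where Col9a1 was high, correlated with one another at 0.65 to 0.75 over all tested genes. With the replicate block 0 collagens were called, and the collagen medians were 0.25, 0.75 and 0.45. In EpPT2 against Ctrl, 8 of 24 collagens then had an unadjusted p under 0.05, against 21.1% of all genes. The ratio of Col1a1 to Col1a2 by group was not run, since Col1a2 had 0 counts in 5 libraries, and the test for any group was not run on 6 libraries. At this depth and spread, genes under about 1 CPM rest on few counts.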
